A study of Mus musculus with 8 samples.

Results

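Signals of 9 genes, the EGF family ligands Hbegf, Ereg, Tgfa, Btc and Nrg1 and the ErbB receptors Egfr, Erbb2, Erbb3 and Erbb4, were read on 8 Affymetrix arrays from mouse nerve sheath tumours. Members were taken as the probe sets that the platform annotates to exactly 1 of these symbols. Each of the 9 has 1 such probe set, so no choice between probe sets was needed, and all 9 entered the fit among 19938 genes with no filter on low values. The tumours are primary MPNSTs (malignant peripheral nerve sheath tumours) from the NPcis model, mice that carry linked mutations of Nf1 and Trp53 on the same chromosome and form tumours that lose the remaining copies. All groups, controls included, share that genotype. The groups hold 2 arrays each. They are vehicle, rapamycin (an mTORC1 inhibitor, 5 mg/kg, route given as IP), the MEK inhibitor PD-0325901 (2 doses a day of 1.5 mg/kg, route given as OG) and a combination of both drugs at these doses, with a treatment time of 14 hours. The labels give no age, and do not say that the arrays of a group come from separate animals, so p-values cover the spread between these samples only.

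EGF family ligands are made as membrane proteins and are released by metalloproteases. Hbegf, Tgfa, Btc and Ereg bind Egfr, and Hbegf, Btc and Ereg also bind Erbb4, while Nrg1 binds Erbb3 and Erbb4. Erbb2 has no ligand of its own and serves as the preferred partner of the others, and Erbb3 has a weak kinase and signals through its partner. Active receptors feed Ras, the protein that neurofibromin (the Nf1 product) switches off, and from there RAF, MEK and ERK. Several EGF ligands are themselves transcribed in response to ERK, and in Schwann cells Nrg1 acts through Erbb2 and Erbb3 to drive survival and myelination.

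Values are the deposited log2 signals, differences are log2 differences of group means, and SE is limma's standard error. No gene of the 19938 passed an adjusted p of 0.05 in any of the 8 comparisons, so 0 of the 9 members did (background 0% in each; limma, Benjamini-Hochberg over all genes). Member counts at an unadjusted p under 0.05 are therefore given beside the share of all genes at that threshold. Without vehicle array 2, adjusted counts over all genes were 8 for the PD-0325901 main effect, 2 for the rapamycin main effect, 2 for the interaction, 9 for PD-0325901 against vehicle, 6 for rapamycin against vehicle and 9 for the combination against vehicle. For rapamycin against vehicle the count was also 4 without rapamycin array 1 and 15 without rapamycin array 2. None of the main effect counts held a member. For the other comparisons this was checked for Hbegf, Ereg, Nrg1 and Erbb2 only, and the counts held none of them. Array correlations ran from 0.947 to 0.983 within groups (4 pairs) and from 0.953 to 0.980 between groups (24 pairs), and the array medians from 7.79 to 7.90. PD-0325901 array 2 had a summed erythroid marker signal of 12.07, against 8.93 to 9.56 on the other 7 arrays. The number of arrays limits the precision, since 2 arrays against 2 cannot give an exact permutation p below 0.333.

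**Figure D1:**
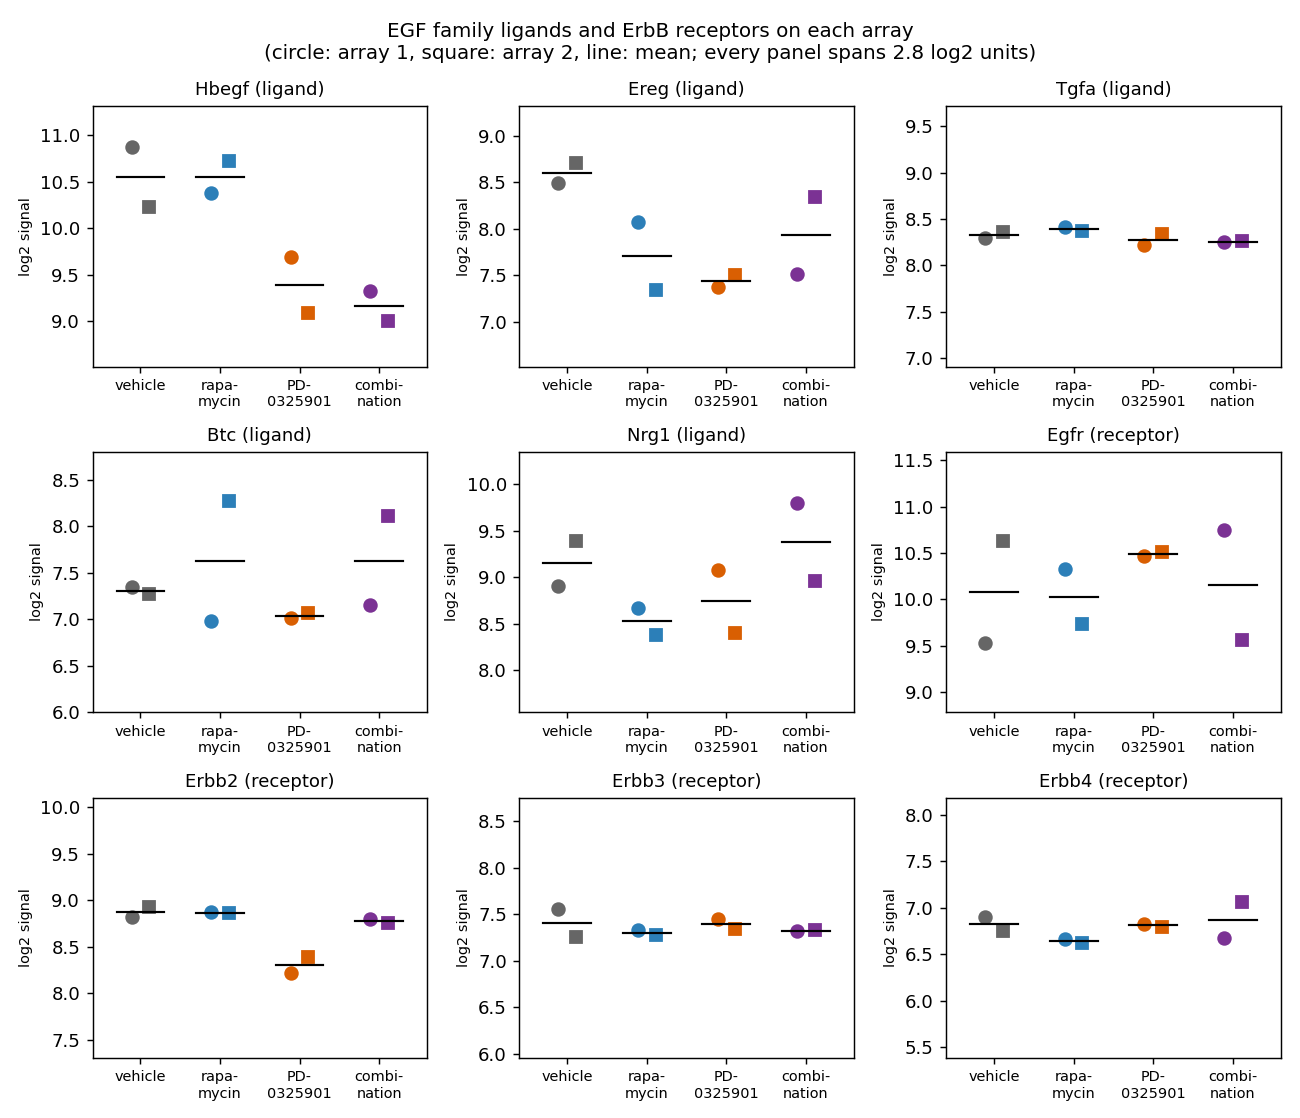
Log2 signal of each ligand and receptor (vertical axis, of the same length in every panel) on the 2 arrays of each group (horizontal axis), with a line at the group mean. Hbegf is at 9.0 to 9.69 on the 4 arrays with PD-0325901 and at 10.23 to 10.87 on the 4 without it, and Erbb2 is at 8.21 and 8.39 with PD-0325901 alone and at 8.76 or above elsewhere.

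The PD-0325901 main effect, the mean of the drug's effect without and with rapamycin, asks what MEK inhibition goes with in these tumours. Of the 9 members, 2 had an unadjusted p under 0.05, both lower, against 9.60% of all genes in either direction. The arrays with and without PD-0325901 did not overlap for the same 2 members, Hbegf and Erbb2, against 5.73% of all genes. The median difference over the 9 members was -0.093, and over all genes -0.013.

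Hbegf, a ligand first described from macrophages that binds heparin and serves Egfr and Erbb4, had the largest PD-0325901 main effect of the 9 in size. It read 10.87 and 10.23 on the vehicle arrays and 10.38 and 10.72 on the rapamycin arrays. It read 9.69 and 9.09 with PD-0325901 alone and 9.32 and 9.0 with the combination. The 4 arrays with the MEK inhibitor thus all lay below the 4 without it, while vehicle overlapped rapamycin and PD-0325901 overlapped the combination. In these bulk samples, fewer cells that make a transcript and less transcript per cell cannot be told apart. The mean was 9.28 ± 0.31 (SD, n = 4) with PD-0325901 and 10.55 ± 0.30 (SD, n = 4) without it. That is a difference of -1.27 (SE 0.21, 95% interval -1.79 to -0.75), or a 2.42-fold lower signal. The limma p was 9.634e-04 before and 0.165 after adjustment over all genes, and the exact two-sided permutation p over 70 arrangements of the arrays was 0.0286, the smallest they can give. Only 37 of the 19938 genes had a lower difference.

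The PD-0325901 effect on Hbegf can be read in a pair of comparisons that share no array. PD-0325901 against vehicle had a difference of -1.16 (SE 0.30, limma adjusted p = 0.626) and the combination against rapamycin one of -1.39 (SE 0.30, limma adjusted p = 0.575). The interaction of the drugs, which tests whether these effects differ, was -0.23 with a 95% interval of -1.26 to 0.81. Over the alternatives run for the main effect, the Hbegf difference lay between -1.43 and -1.11, with an adjusted p of 0.0745 to 0.520. The lowest of these came from a fit of 2 groups of 4 arrays, in which 22 genes passed (0.110% of all genes) and Hbegf did not.

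Ereg, the ligand epiregulin, differed from Hbegf in which arrays were low. It read 8.49 and 8.70 with vehicle and 7.37 and 7.50 with PD-0325901 alone. The rapamycin arrays read 8.07 and 7.35, and the combination arrays 7.51 and 8.34. Every array of a treated group was thus below both vehicle arrays, and rapamycin overlapped both other treated groups. The PD-0325901 arrays lay below both combination arrays. PD-0325901 against vehicle had a difference of -1.16 (SE 0.34, 95% interval -1.99 to -0.33, limma adjusted p = 0.687). In rapamycin against vehicle it was -0.89 (SE 0.34, limma adjusted p = 0.964). With both drugs the difference from vehicle was -0.67 (SE 0.34, 95% interval -1.49 to 0.16). That value was -1.08 without combination array 2 and -0.26 without combination array 1, and rapamycin against vehicle was -1.25 without rapamycin array 1 and -0.52 without rapamycin array 2.

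For the MEK inhibitor on top of rapamycin, the sign of the Ereg difference depended on the arrays kept. The combination against rapamycin had a difference of 0.22 (SE 0.34, 95% interval -0.61 to 1.04). This was -0.15 without rapamycin array 2, -0.20 without combination array 2 and -0.56 without both. The interaction was 1.38 (SE 0.48, 95% interval 0.21 to 2.55, limma adjusted p = 0.9999), and lay between 0.60 and 1.79 over the alternatives. No detection call is held for the low Ereg signals. Over all 8 arrays the PD-0325901 main effect on Ereg was -0.47 (SE 0.24, limma adjusted p = 0.629), with an exact permutation p of 0.314, and leaving out 1 array gave -0.68 (without combination array 2) to -0.26 (without combination array 1).

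Tgfa, the ligand transforming growth factor alpha, was the steadiest of the 9, with all 8 values between 8.22 and 8.41. Its PD-0325901 main effect was -0.093 (SE 0.067, 95% interval -0.26 to 0.072) and its exact permutation p 0.0571. The interval leaves out a change as large as that of Hbegf. The rapamycin main effect was 0.021 (SE 0.067).

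Nrg1, the neuregulin of axons and Schwann cells, read 8.91 and 9.39 with vehicle, 8.67 and 8.38 with rapamycin, 9.07 and 8.40 with PD-0325901 and 9.80 and 8.96 with the combination. Neighbouring groups overlapped all along the order combination, vehicle, PD-0325901, rapamycin, and the 2 arrays of a group lay up to 0.84 apart. Both rapamycin arrays lay below both vehicle arrays and both combination arrays. In these comparisons the arrays did not overlap for 30.4% and 31.1% of all genes. The PD-0325901 difference was -0.41 (SE 0.36) against vehicle and 0.85 (SE 0.36) on top of rapamycin. Leaving out 1 array gave -0.75 (without PD-0325901 array 1) to -0.073 (without PD-0325901 array 2) for the former and 0.43 (without combination array 1) to 1.27 (without combination array 2) for the latter. The interaction was 1.26 (SE 0.51, 95% interval 0.011 to 2.52, limma adjusted p = 0.9999). The PD-0325901 main effect of 0.22 (SE 0.26) had an exact permutation p of 0.571, and was 0.011 without combination array 1 and 0.43 without combination array 2.

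Btc, the ligand betacellulin, was high on 2 arrays. It read 8.27 on rapamycin array 2 and 8.10 on combination array 2, and 6.98 to 7.34 on the other 6. These arrays come from different groups, and lay 1.29 and 0.95 above the other array of their group. The same 2 arrays had the highest summed signal of 8 skeletal muscle markers, 13.65 and 12.68, against 11.02 to 12.25 on the other 6. The rapamycin main effect on Btc was 0.46 (SE 0.33, limma adjusted p = 0.910) with all arrays. It was -0.10 without these 2, which were chosen after the data were seen. Both had rapamycin, so leaving out the highest Btc values was bound to lower this difference. The PD-0325901 main effect was -0.13 (SE 0.33), with an exact permutation p of 0.571. Whether muscle in the tissue piece contributed to the Btc signal was not tested.

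Among the receptors, Erbb2 was low with PD-0325901 alone. It read 8.82 and 8.93 with vehicle, 8.87 and 8.86 with rapamycin and 8.80 and 8.76 with the combination, but 8.21 and 8.39 with PD-0325901. The 2 PD-0325901 arrays lay below the other 6, whose whole range was narrower than the gap of the pair to them. The difference from vehicle was -0.57 (SE 0.10, 95% interval -0.83 to -0.32), a 1.49-fold lower signal, with a limma p of 0.0015 and an adjusted p of 0.460. The combination against rapamycin had a difference of -0.087 (SE 0.10, 95% interval -0.34 to 0.17).

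Rapamycin together with PD-0325901 left Erbb2 at 8.78 ± 0.032 (SD, n = 2), against 8.30 ± 0.12 (SD, n = 2) with PD-0325901 alone. That difference was 0.48 (SE 0.10, 95% interval 0.23 to 0.74, limma adjusted p = 0.9998), and 22 of the 19938 genes had a smaller p in this comparison. The interaction was 0.49 (SE 0.15, 95% interval 0.13 to 0.85, limma adjusted p = 0.9999). Over the alternatives the interaction lay between 0.40 and 0.57. The PD-0325901 main effect on Erbb2 was -0.33 (SE 0.074, limma adjusted p = 0.260), and its exact permutation p was 0.0286. The separation behind that p was narrow, with combination array 1 at 8.802 and vehicle array 1 at 8.819. A fit of 2 groups of 4 arrays gave an SE of 0.14 and a limma adjusted p of 0.465.

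A promoter is shown for Erbb2 because, of the 2 members with arrays that did not overlap in the PD-0325901 main effect, it is the one for which the RefSeq promoter table (GRCm38.p6) has an entry. That table holds 5 of the 9 members. The window of 300 bases, 250 before and 50 after the start, is at chr11:98412234-98412533 on the + strand, and capitals mark the motif matches.
Erbb2: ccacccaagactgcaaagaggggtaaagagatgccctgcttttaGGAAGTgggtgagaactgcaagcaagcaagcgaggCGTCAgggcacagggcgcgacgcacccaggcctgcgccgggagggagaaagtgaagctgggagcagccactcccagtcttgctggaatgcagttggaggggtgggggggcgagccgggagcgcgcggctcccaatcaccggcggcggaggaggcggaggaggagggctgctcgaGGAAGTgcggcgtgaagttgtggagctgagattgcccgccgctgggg

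The motifs searched on both strands were the ETS core GGAAGT, the CRE core TGACG, the AP-1 motif TGANTCA, the E-box CACGTG and the GC box GGGCGG. The Erbb2 window holds 2 ETS cores, at -206 and 3 relative to the start, and 1 CRE core on the minus strand at -171. Its GC content is 66.0%. Of all 32851 promoters in the table, 23.8% hold the ETS core, 20.8% the CRE core, 7.81% the AP-1 motif, 7.15% the E-box and 35.7% the GC box. Egfr has 1 GC box and Tgfa 2, Btc has 1 CRE core, and Erbb4 has none of the 5 motifs. A match is a description of the letters, not of a bound site.

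Egfr, the receptor of Hbegf, Ereg, Tgfa and Btc, varied more within groups than between them. It read 9.53 and 10.63 with vehicle, 10.32 and 9.73 with rapamycin, 10.46 and 10.51 with PD-0325901 and 10.75 and 9.56 with the combination. The group means ran from 10.03 to 10.49, while the 2 vehicle arrays lay 1.10 apart and the 2 combination arrays 1.18. The PD-0325901 main effect was 0.27 (SE 0.36, 95% interval -0.61 to 1.14), and the rapamycin main effect was -0.19 (SE 0.36). Of the 3 arrays with the lowest Egfr, vehicle array 1 and rapamycin array 2 also had the lowest summed fibroblast marker signal, 14.42 and 14.45, while combination array 2 had 15.45, within the range of 15.06 to 15.53 of the rest.

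Erbb3 and Erbb4, the neuregulin receptors, read 7.25 to 7.56 and 6.62 to 7.07 over the 8 arrays. Erbb3 had a PD-0325901 main effect of 0.0012 (SE 0.091), which was -0.030 after quantile normalization and -0.032 after median centring, so it has no stable sign. Its 95% interval was -0.22 to 0.22. Erbb4 had a PD-0325901 main effect of 0.11 (SE 0.11, 95% interval -0.15 to 0.36) and a rapamycin main effect of -0.062 (SE 0.11). The files hold no detection call, so whether these signals lie above the array's background is not known. The same limit applies to Btc, with a mean of 7.40 beside 7.36 for Erbb3, and to the lowest Ereg values, 7.35 to 7.51.

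**Figure D2:**
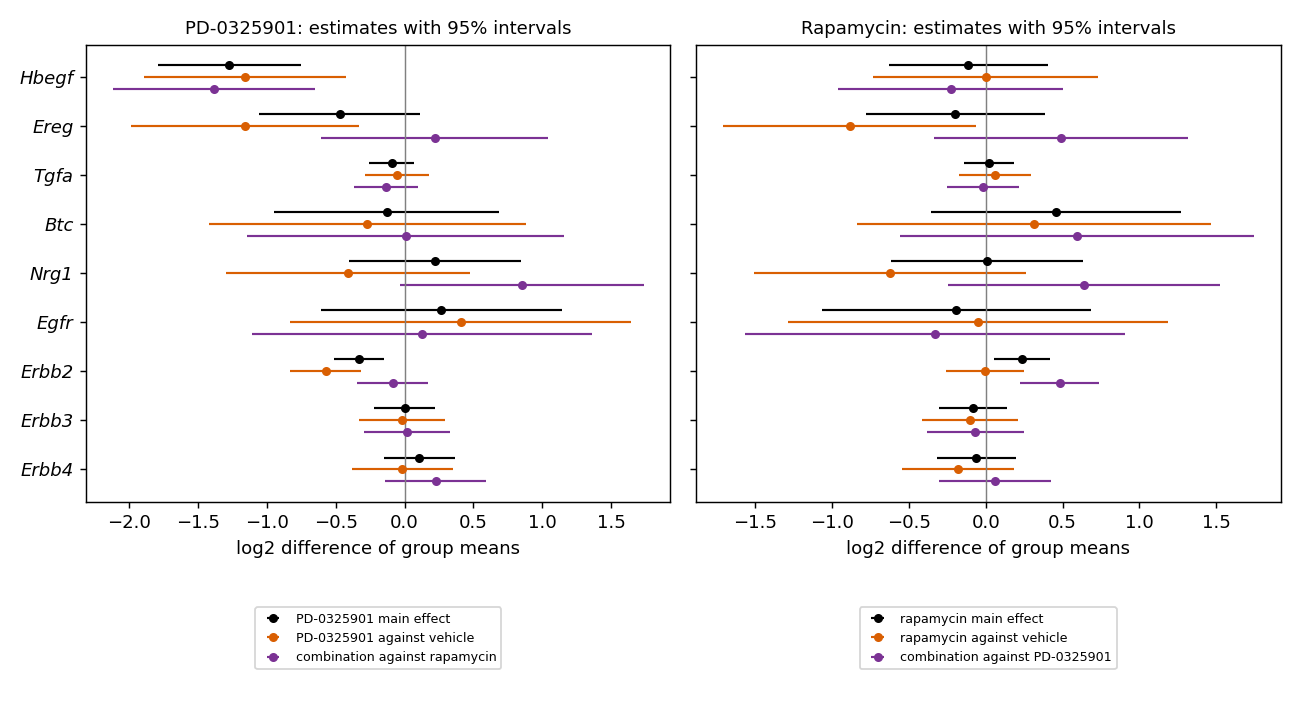
Log2 difference of group means (horizontal axis) with its 95% interval for each member (vertical axis), for PD-0325901 on the left and rapamycin on the right, each as the main effect and in the 2 comparisons that make it up. For Hbegf all 3 PD-0325901 intervals lie below 0, for Ereg and Erbb2 the interval of PD-0325901 against vehicle lies below 0 and that of the combination against rapamycin spans it, and for rapamycin added to PD-0325901 only the Erbb2 interval leaves out 0.

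Read by comparison, members below an unadjusted p of 0.05 were Hbegf, Ereg and Erbb2 in PD-0325901 against vehicle (3 of 9, all lower, against 5.84% of all genes) and Hbegf alone in the combination against rapamycin (6.66%) and against vehicle (9.07%). The combination against vehicle had an Hbegf difference of -1.39 (SE 0.30, limma adjusted p = 0.359). With 2 arrays against 2, arrays did not overlap for 4 members in PD-0325901 against vehicle (38.6% of all genes), 5 in the combination against rapamycin (31.1%) and 4 in the combination against vehicle (40.2%). Counts of 4 in 9 are close to the background, and with only 9 members the count of 5 is not read as above it. The 5 were Hbegf, Tgfa and Erbb2, lower, and Nrg1 and Erbb4, higher. The Tgfa, Erbb2 and Erbb4 differences were -0.13 (SE 0.095), -0.087 (SE 0.10) and 0.23 (SE 0.15).

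The rapamycin main effect, the mean of the drug's effect without and with PD-0325901, asks what mTORC1 inhibition goes with. It had 1 member below an unadjusted p of 0.05, Erbb2 at 0.24 (SE 0.074, limma adjusted p = 0.803), against 5.55% of all genes. For Erbb2 the exact permutation p was 0.371. Its rapamycin difference was -0.0062 (SE 0.10) against vehicle and 0.48 (SE 0.10) on top of PD-0325901. The arrays with and without rapamycin overlapped for all 9 members (3.35% of all genes did not overlap). Rapamycin against vehicle had 1 member at that threshold, Ereg, against 4.93% of all genes, and the combination against PD-0325901 had Erbb2, against 3.0%. Arrays did not overlap for 4 members in each of the latter (30.4% and 34.5% of all genes). The Hbegf means were 10.55 with vehicle and 10.55 with rapamycin, a difference of -7.787e-04 (SE 0.30) that has the other sign, 0.0068, after median centring.

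The interaction had 3 members below an unadjusted p of 0.05, Ereg, Nrg1 and Erbb2, each with a positive value, against 2.18% of all genes. A positive interaction means that the PD-0325901 difference was higher on top of rapamycin than against vehicle. None of the 3 passed after adjustment. The comparisons with vehicle share the vehicle arrays, so the values of a gene in them are not independent.

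Genes that surround the receptors were read from lists. Of 6 other ErbB ligands 5 had a single-gene probe set (Egf, Epgn, Nrg2, Nrg3 and Nrg4), and Areg was not among them. Their PD-0325901 main effects ran from -0.11 (Epgn) to 0.079 (Nrg4), with 0 of 5 at an unadjusted p under 0.05 (9.60% of all genes) and a median of 0.019. Their rapamycin main effects ran from -0.13 (Egf) to 0.14 (Epgn).

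The list of shedding and maturation genes had 14 of 15 members measured, with a median PD-0325901 main effect of -0.0098. At an unadjusted p under 0.05 it had 1 of 14 members higher and 0 lower, against 9.60% of all genes in either direction, so the count is near the background. That gene was Adam9, a metalloprotease, at 0.39 (SE 0.11, limma adjusted p = 0.327). Adam12, a metalloprotease that can release Hbegf, had a difference of -1.17 (SE 0.50, limma adjusted p = 0.540). Its values were 10.19 and 11.16 with vehicle, 9.70 and 10.93 with rapamycin, 8.42 and 10.12 with PD-0325901 and 9.71 and 9.05 with the combination, so the arrays of a group lay as far apart as the groups. Adam17, the main sheddase of the family, had a difference of 0.078 (SE 0.16) and is named after its value was seen. Furin, a proprotein convertase, had a difference of -0.26 (SE 0.12).

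Negative regulators of the receptors (16 of 16 measured) had a median of -0.062 and 0 members at an unadjusted p under 0.05, against 9.60% of all genes in either direction. Errfi1, an inhibitor that binds the Egfr kinase, was at -0.26 (SE 0.12, limma adjusted p = 0.594). The phosphatase Ptpn12 was at -0.34 (SE 0.14) and Lrig1, which promotes receptor degradation, at 0.36 (SE 0.21). Adaptors and effectors (26 of 26 measured) had a median of 0.040. At that threshold 1 of 26 was higher and 1 lower, so the count is near the background of 9.60% of all genes. Nck2, an SH2 and SH3 adaptor, was at -0.43 (SE 0.16) and the transcription factor Stat5b at 0.20 (SE 0.076). For the rapamycin main effect 3 of 26 were higher and 0 lower at that threshold, against 5.55% of all genes in either direction. As rapamycin main effects Stat5b was at 0.25 (SE 0.076) and Pik3ca, a catalytic subunit of PI3K, at 0.28 (SE 0.096), with limma adjusted p of 0.788 and 0.852. Stat5b read 8.59 and 8.78 with vehicle and 9.13 to 9.29 on all treated arrays. Its PD-0325901 difference was 0.49 (SE 0.11) against vehicle and -0.0875 (SE 0.11) on top of rapamycin.

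ERK output genes, which report on the pathway below the receptors, had a median PD-0325901 main effect of -0.36 against -0.013 for all genes. Of 19 measured, 18 had a negative value, and 8 were lower and 0 higher at an unadjusted p under 0.05, where 825 of all 19938 genes were lower. Spred1, a membrane inhibitor of Ras signalling, was at -0.54 (SE 0.067, limma adjusted p = 0.141), and its 4 arrays with PD-0325901 read 9.96 to 10.15 against 10.54 to 10.69 for the 4 without. Spred2 was at -0.36 (SE 0.079), the ERK phosphatase Dusp5 at -0.75 (SE 0.22) and Plaur, the urokinase receptor, at -0.79 (SE 0.26). The difference of Hbegf, -1.27, was below that of all 19 of these genes, which ran from -0.89 to 0.18. As a rapamycin main effect this list had a median of -0.064 and 0 of 19 genes at that threshold, against 5.55% of all genes. Leaving out 1 array moved that median to between -0.30 (without rapamycin array 2) and 0.079 (without PD-0325901 array 1).

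**Figure D3:**
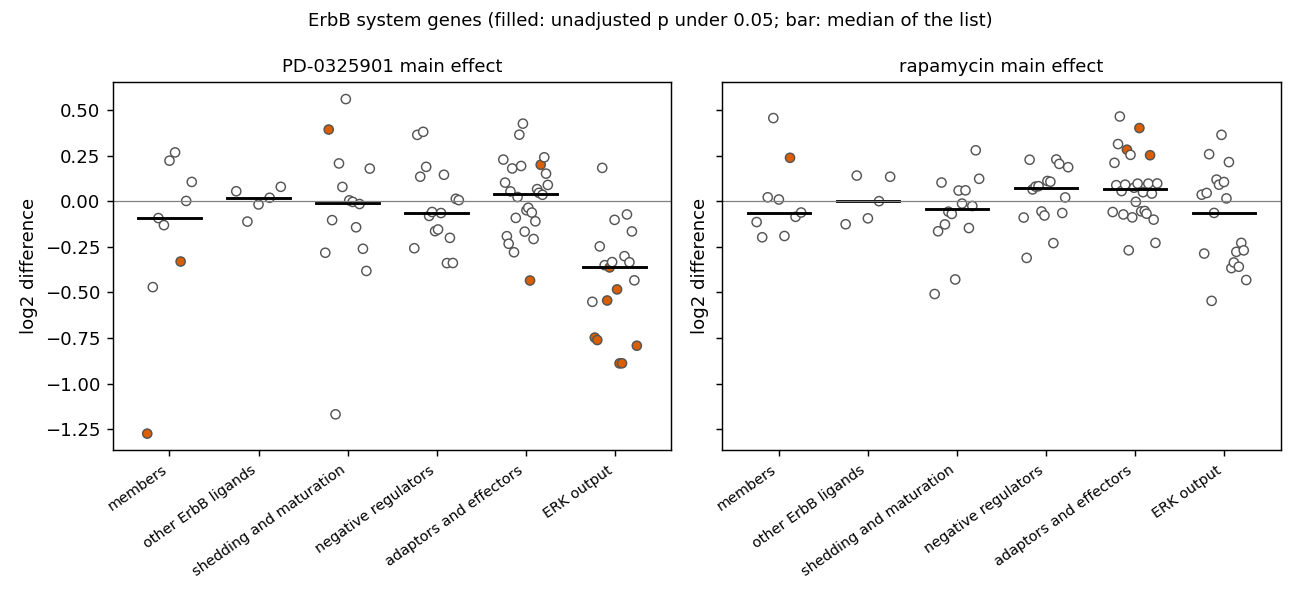
Log2 difference (vertical axis) of each gene of the member list and of 5 lists around the ErbB receptors (horizontal axis), for the main effect of PD-0325901 on the left and of rapamycin on the right, with a bar at each list's median. For PD-0325901 the ERK output list has a median of -0.36 and 8 of 19 filled points, which mark an unadjusted p under 0.05, while the other 4 lists have medians from -0.062 to 0.040 and the members one of -0.093.

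Markers of other cell types that could carry these transcripts also differed with PD-0325901. At an unadjusted p under 0.05, 1090 of the 19938 genes were higher and 825 lower, which is the background for the counts that follow. All 10 macrophage markers had a positive main effect (median 0.43), 8 of them at an unadjusted p under 0.05, among them the Fc receptor Fcgr1 at 0.84 (SE 0.12) and Adgre1 at 0.63 (SE 0.096). Their summed log2 signal was 14.68 to 15.001 with vehicle, 14.77 to 14.83 with rapamycin, 15.31 to 15.34 with PD-0325901 and 14.95 to 15.25 with the combination. Hbegf was thus lower on arrays where this sum was mostly higher. All 10 endothelial markers had a negative main effect (median -0.47), 5 of them at that threshold, with Emcn at -0.67 (SE 0.18) and the junction protein Cdh5 at -0.65 (SE 0.18). Their summed signal was 13.04 to 13.44 with vehicle, 13.30 to 13.84 with rapamycin, 12.76 to 13.30 with PD-0325901 and 12.71 to 12.90 with the combination. Hbegf and this sum were thus both lower on the combination arrays than on any array without PD-0325901. With PD-0325901 alone, array 2 had Hbegf at 9.09 but a sum of 13.30, above the 13.04 of vehicle array 2. The part of these cell types in the Hbegf result was not tested.

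T and NK cell markers had a median main effect of 0.79, with all 10 positive and 7 at an unadjusted p under 0.05, and Nkg7 at 1.6 (SE 0.42). Their summed signal was 10.87 to 11.34 with vehicle, 10.63 to 10.64 with rapamycin, 11.30 to 12.02 with PD-0325901 and 11.51 to 12.41 with the combination. Median main effects were 0.095 for neutrophil (8 markers), 0.0076 for mast cell (7), 0.23 for fibroblast (8), -0.11 for skeletal muscle (8) and 0.51 for erythroid markers (3 of 6 measured). Keratinocyte markers, which would mark skin with its own EGF ligands, had a median of -0.039 with 0 of 12 at that threshold and sums of 10.92 to 11.20 over all arrays. Of 11 Schwann cell and nerve sheath markers 9 were measured. Their median was 0.011, with 5 values above and 4 below 0. The highest were Gap43 at 1.14 (SE 0.44) and Cdh19 at 1.01 (SE 0.41), and the lowest were Sox2 at -0.46 (SE 0.99) and Egr2 at -0.40 (SE 0.21). The lineage markers Sox10 and S100b, named after their values were seen, had differences of 0.011 and -0.020 and mean signals of 7.98 and 7.18, for which no detection call is held.

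**Figure D4:**
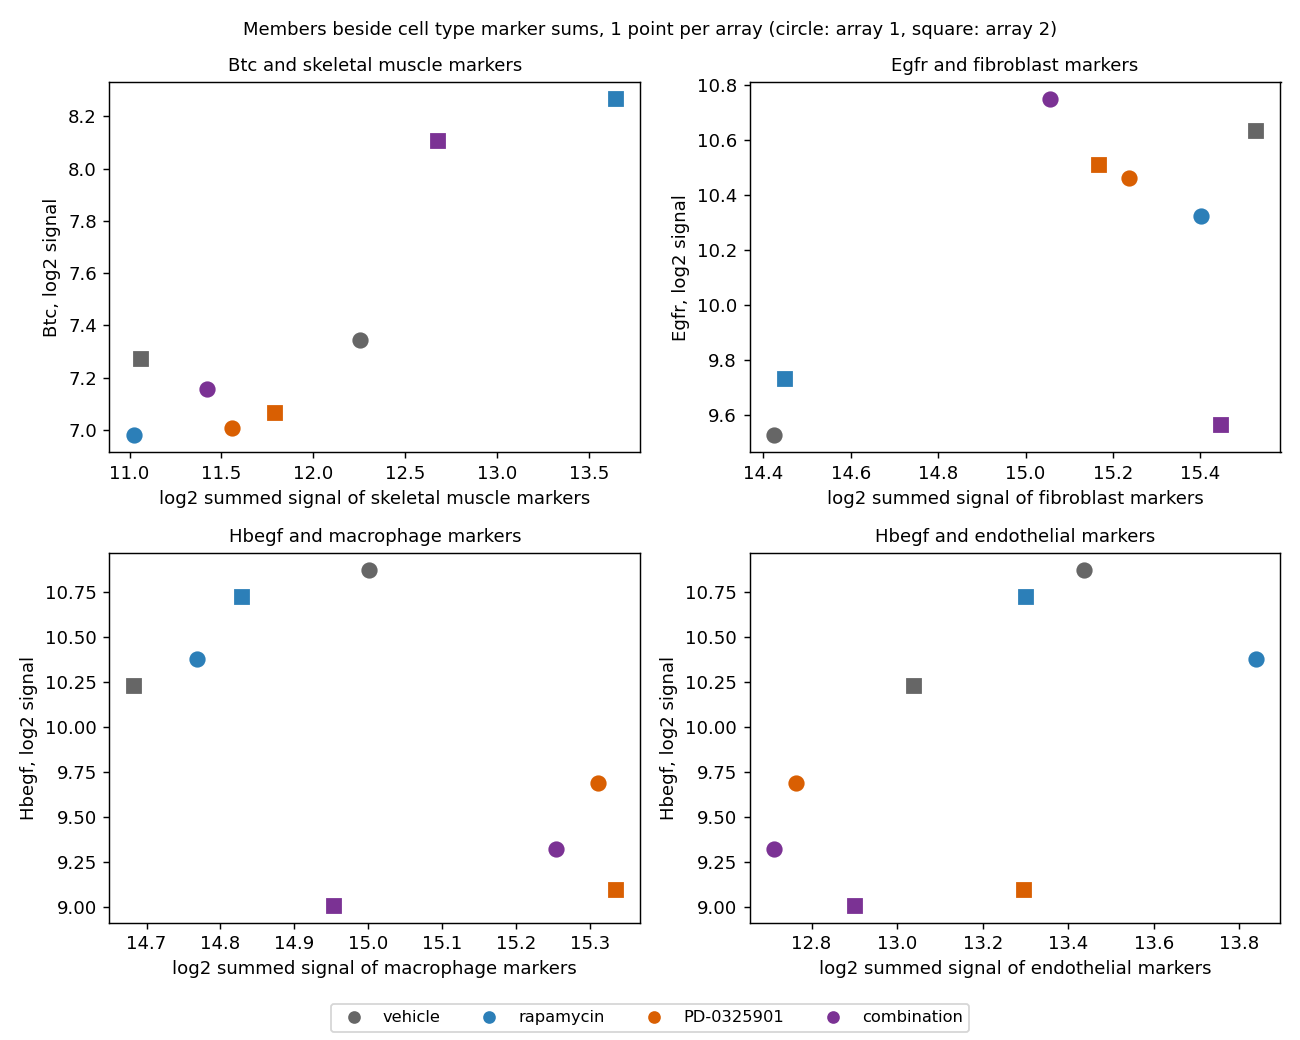
Log2 signal of a member (vertical axis) against the log2 summed signal of a cell type's markers (horizontal axis), 1 point per array, coloured by group. Btc is highest, at 8.27 and 8.10, on the 2 arrays with the highest muscle sums, 13.65 and 12.68, and the 4 arrays with PD-0325901 have Hbegf at 9.0 to 9.69 at macrophage sums of 14.95 to 15.34.

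The genes most like each member were found by the mean absolute difference over the 8 arrays, after subtracting each gene's mean log2 signal, among 9336 genes with an SD of at least 0.2. For Hbegf they were Hsph1, a heat shock protein (0.18), Unc5b, a netrin receptor (0.21), and Dcbld1 (0.23), whose PD-0325901 main effects were -0.91, -1.11 and -0.85. For Erbb2 they were Pdzd8 (0.059), Mob4 (0.068) and Adss (0.072), with main effects of -0.23, -0.28 and -0.31. For Ereg they were the phosphatase Inpp4b (0.21), the phospholipase Pla2g4a (0.22) and Plekhf1 (0.22), with main effects of -0.50, -0.48 and -0.41. These genes were picked on the same 8 arrays, so main effects near the member's own follow from the choice.

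For Btc the closest were Ankrd2 (0.075), Csrp3 (0.12) and Lrrc2 (0.15), of which Ankrd2 and Csrp3 are known as genes of striated muscle. For Nrg1 they were Zfp612 (0.14), Fut10 (0.16) and Myo16 (0.16), and for Egfr Tspyl3 (0.15), Dipk1b (0.17) and Tmod2 (0.17). Tgfa, Erbb3 and Erbb4 had SDs of 0.068, 0.10 and 0.15 over the arrays, below the minimum set for their neighbours, so their closest genes are not described. Likeness over 8 arrays is a description and says nothing of shared control.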

How the data were processed

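RNA of 8 samples was extracted with Trizol, cleaned up with RNeasy and labelled by NuGEN's Applause WT-Amp ST kit, per the labels' protocols. The deposited values are log2 signals, 1 per probe set and array. The scale was read from the values, which run from 3.36 to 14.36. The sources used here do not give the background correction, normalization or software. Of 35512 probe sets, 21789 carry a single gene symbol, 1621 several and the rest none. The probe set with the highest mean stood for a gene, which left 19938 genes. A probe set shared by Erbb2 and Sympk was left out.

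Group means were fitted with limma 3.58.1 in R 4.3.3 (lmFit, eBayes, two-sided, 4 residual degrees of freedom), with Benjamini-Hochberg adjustment over all genes and a threshold of 0.05. The script was tested on simulated data. Exact permutation tests used 70 arrangements. Members and lists were chosen with earlier results of these data known. Named genes are the members, the list genes with the smallest p and each member's 3 nearest genes, and a few others are named after their values were seen. Alternatives covered normalization, the filter on dim genes, the variance model, the replicate block and leaving out arrays. The marker lists also covered neutrophil, mast cell, fibroblast, skeletal muscle and erythroid markers.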

Additional observations from a re-analysis of the deposited data

How the results depend on the processing

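No member passed the adjusted threshold for a main effect in any alternative run. The other comparisons were recomputed for Hbegf, Ereg, Nrg1 and Erbb2 only, and none of these passed that threshold. The counts of genes past it stayed at 0 with quantile normalization, median centring, the mean of all probe sets, genes above the median level, a robust prior with a trend in the variance, an adjusted p of 0.1 and the replicate block, under which the adjusted p of Hbegf was 0.278 for the PD-0325901 main effect. With only the groups compared 22 genes passed for that effect. Leaving out 1 array gave 0 to 8 genes for the PD-0325901 main effect, 0 to 2 for the rapamycin main effect and the interaction, 0 to 9 for PD-0325901 and for the combination against vehicle, and 0 to 15 for rapamycin against vehicle. There was no sign that the array numbers pair the arrays (correlations of deviations from the group means -0.28 to 0.18 over 6 pairs of groups). With 2 arrays per group this cannot exclude a pairing. The block changed no call. A group left with 1 array is assumed to vary like the others.

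Of 1486 recomputed values of named genes, 50 changed sign. Quantile normalization gave PD-0325901 main effects of -0.030 for Erbb3 and -0.013 for Nrg3 and a rapamycin main effect of -0.0022 for Nrg1. Median centring gave -0.032 for Erbb3 and -0.015 for Nrg3, and rapamycin against vehicle of 0.0068 for Hbegf and 0.0014 for Erbb2. Without rapamycin array 2 and combination array 2, chosen after the data were seen, PD-0325901 main effects were -0.016 for Erbb3, -0.0042 for Erbb4, -0.019 for Nrg4 and -0.044 for Nrg3. Rapamycin main effects were then -0.10 for Btc and 0.25 for Egfr, the Hbegf interaction 0.10 and Ereg in the combination against rapamycin -0.56.

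Leaving out 1 array also turned the sign of values near 0. PD-0325901 main effects then ran from -0.45 to 0.19 for Btc, -0.029 to 0.56 for Egfr, -0.33 to 0.11 for Epgn, -0.076 to 0.079 for Erbb3, -0.081 to 0.12 for Nrg3 and -0.0026 to 0.16 for Nrg4. Rapamycin main effects ran from -0.49 to 0.10 for Egfr, -0.16 to 0.037 for Erbb4, -0.40 to 0.0089 for Ereg, -0.28 to 0.047 for Hbegf, -0.20 to 0.22 for Nrg1 and -0.0087 to 0.051 for Tgfa. Rapamycin against vehicle ran from -0.060 to 0.048 for Erbb2 and -0.32 to 0.32 for Hbegf. Hbegf ran from -0.53 to 0.070 in the combination against PD-0325901 and from -0.55 to 0.095 in the interaction. Ereg ran from -0.20 to 0.63 in the combination against rapamycin, and Nrg1 from -0.19 to 0.65 in the combination against vehicle. The cause of these changes was not tested. The interaction needs all 4 groups and has no fit of only the groups compared.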

Other observations

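A further probe set, annotated to both Erbb2 and Sympk (a scaffold protein of messenger RNA 3' end processing), was left out of the comparisons because it names 2 genes. It read 8.00 and 7.76 with vehicle, 7.89 and 7.43 with rapamycin, 7.67 and 9.41 with PD-0325901 and 8.41 and 9.93 with the combination. PD-0325901 array 2 and combination array 2 were the highest, whereas the probe set of Erbb2 alone read 8.39 and 8.76 on them.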
